A study of Mus musculus with 30 samples.

Results

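The comparison set 5 Prdm9-/- libraries from mice of 16 days postpartum (dpp) against 5 libraries from non-mutant mice of 12 dpp, 1 of them Prdm9+/+ and 4 Prdm9+/-. These 10 libraries were chosen by their labelled genotype and age, and the series holds 30 in all, with the same genotypes at 8, 12 and 16 dpp. Each library is polyA RNA from testes of male C57BL/6J mice that carry less than 10% of 129S1/SvImJ, after a step to enrich germ cells. Tubules were treated with an enzyme mix and washed to take away cells between them. The 5 Prdm9-/- libraries of 12 dpp and the 5 non-mutant libraries of 16 dpp (2 Prdm9+/+ and 3 Prdm9+/-) are given beside the results as levels only. The groups compared differ in age and in genotype at once, and the part of each in a difference cannot be told apart. The question is how far the 16 dpp mutant has moved beyond a normal testis in early meiotic prophase, and in which genes.

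PRDM9 is a histone methyltransferase with a zinc finger array that binds DNA and marks the sites where SPO11 cuts the chromosomes in meiotic prophase. Without it the breaks form elsewhere, many chromosomes fail to pair and synapse, and male mice of this background make no sperm. In the first wave of spermatogenesis germ cells move through prophase together: leptotene and zygotene, when breaks form and the synaptonemal complex is assembled, come first. Pachytene, when a broad programme of genes for sperm formation starts and the X and Y chromosomes are silenced, follows some days later.

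Levels are TPM, a relative abundance of transcripts that is scaled for their length. Of 65534 table rows, 17875 exceeded 1 TPM in at least 5 of the 10 libraries and were tested. Each row was fitted with limma on log2(TPM + 1), and a row was called risen or fallen in the 16 dpp mutant at a two-sided Benjamini-Hochberg adjusted p under 0.05 over all rows tested. A fold change on this scale understates the change of a low gene. The median SD of a row on this scale was 0.173 in the 16 dpp mutant group and 0.194 in the 12 dpp non-mutant group. Values for the 16 dpp mutants are given in the order of replicates 1 to 5, and those for the 12 dpp non-mutants with the Prdm9+/+ library first and Prdm9+/- replicates 1 to 4 after it. Read totals are not part of the table, so the depth of each library is unknown. The column headers name a litter for each library: the 5 libraries of each group are from 5 litters, with 0 litters shared between the groups, so no animal gave more than 1 of these 10 libraries. Each 16 dpp mutant shares its litter with 1 of the 16 dpp non-mutants.

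Prdm9 itself was at 10.9, 6.89, 9.78, 12.8 and 9.68 TPM in the 16 dpp mutants and at 21.2, 20.5, 15.99, 23.3 and 9.16 TPM in the 12 dpp non-mutants (log2 fold change -0.75, SE 0.221, adjusted p = 0.0373). The library labelled Prdm9+/- 12 dpp replicate 4, at 9.16 TPM, lay inside the mutant range and the other 4 above it. The library labelled Prdm9-/- 12 dpp replicate 5 goes against its label the other way, at 19.2 TPM where the other Prdm9-/- 12 dpp libraries reached at most 8.16 TPM. Both libraries are from litter 13, and whether their labels were exchanged was not tested; the first is kept as labelled here, with results also given without it. The non-mutant 16 dpp libraries held 19.7 to 34.4 TPM. The value covers the whole gene, and the labels do not say which part the mutant allele lacks. Without the library labelled Prdm9+/- 12 dpp replicate 4 the log2 fold change of Prdm9 was -0.96 (adjusted p = 0.00309). The call was lost in 10 of 18 alternative analyses, with an adjusted p of up to 0.124.

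Of the 17875 rows tested, 2632 were called (14.7%). The 16 dpp mutant was higher in 1428 of them (7.99% of all rows) and lower in 1204 (6.74%). These shares are the background for the counts of every gene list below. Most changes were small: the median log2 fold change of the risen rows was 0.56 and that of the fallen rows -0.48, and 206 rows rose and 90 fell by more than 1. The median over all rows tested was -0.0079. Without the library labelled Prdm9+/- 12 dpp replicate 4, 1291 rows rose and 917 fell, and without Prdm9-/- 16 dpp replicate 5, 1002 rose and 789 fell. In 1176 rows (6.58%) every 16 dpp mutant library lay above every 12 dpp non-mutant library, and in 935 (5.23%) every one lay below. A row over 1 TPM only in the 5 libraries of 1 group passed the filter through that group alone: 42 rows did so through the 16 dpp mutants, 38 of them risen, and 17 through the 12 dpp non-mutants, 13 of them fallen. These are whole-sample measurements, so a change in the number of cells of a type and a change in RNA per cell cannot be told apart.

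The 12 named genes that rose most were a mixture of somatic, germ-line and sex-linked genes. Aqp8, a water channel, was at 8.32, 8.58, 13.5, 16.4 and 16.04 TPM in the 16 dpp mutants and at 0.86, 2.12, 1.36, 0.25 and 0.15 TPM in the 12 dpp non-mutants (log2 fold change 2.85, SE 0.284, adjusted p = 6.86e-05). Car7, a carbonic anhydrase, was at 68.2, 22.9, 36.3, 24.4 and 25.5 TPM against 9, 7.07, 4.93, 2.26 and 2.67 TPM (log2 fold change 2.56, SE 0.342, adjusted p = 0.000456). Both genes were higher in every mutant library than in any 12 dpp non-mutant, and the non-mutants of 16 dpp reached 2.69 to 12.1 TPM for Aqp8 and 15.1 to 58.3 TPM for Car7. Hsd3b6, a steroid dehydrogenase of mature Leydig cells, was at 26.6, 50.6, 45.2, 32.7 and 52.3 TPM against 6.01, 11.2, 6.82, 3.12 and 5.01 TPM (log2 fold change 2.56, adjusted p = 7.17e-05). Reads of Hsd3b6 may be shared with its close relative Hsd3b1. Tsx, an X-linked gene of Sertoli cells, was at 139, 133, 144, 109.98 and 164 TPM against 44.8, 38.3, 26.6, 11.7 and 23.4 TPM (log2 fold change 2.33, adjusted p = 0.00018). Its 16 dpp non-mutant libraries held 69.8 to 133 TPM, a range that overlaps the mutants.

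Kctd19, which encodes a partner of the pachytene regulator ZFP541, was the gene of the meiotic lists with the largest rise. It was at 19.8, 22.3, 15.1, 16.6 and 27.3 TPM in the mutants and at 2.67, 5.17, 1.94, 5.74 and 2.57 TPM in the 12 dpp non-mutants (log2 fold change 2.25, SE 0.235, adjusted p = 9.51e-05). The non-mutants of 16 dpp ran from 31.7 to 95.8 TPM, above every mutant library. Gml and Gml2, neighbouring genes of the Ly6 family of surface proteins, were at 47.4 to 85.5 and 24.4 to 55.2 TPM in the mutants, against 5.19 to 14.7 and 4.82 to 11.96 TPM, and at 76.98 to 144 and 50.7 to 92.4 TPM in the 16 dpp non-mutants. Their sequences are alike and the division of reads between them is uncertain. Bbox1, the last enzyme of carnitine synthesis, was at 7.87, 9.61, 10.6, 10.8 and 15.1 TPM against 1.99, 1.63, 1.49, 1.24 and 1.07 TPM (log2 fold change 2.23, adjusted p = 9.04e-06). C2cd4b rose from 0.27 to 1.81 to 2.94 to 12.9 TPM. The other 3 of the 12 were on the sex chromosomes: Dmrtc1b and Scml1 on X and Zfy2 on Y. Dmrtc1b, of the DMRT family, was at 6.98 to 17.7 TPM against 0.64 to 3.65 TPM.

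**Figure D1:**
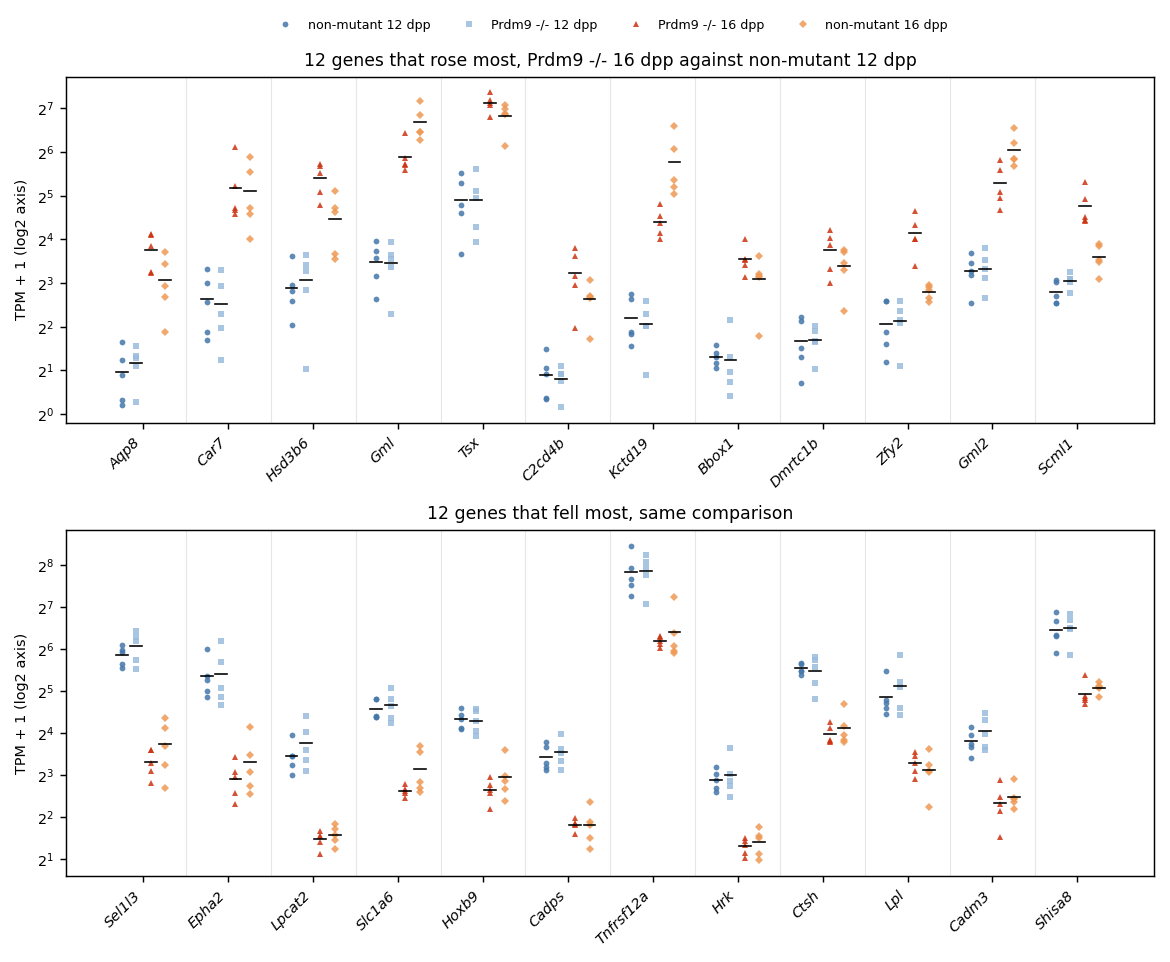
Level of the 12 genes that rose most (top) and the 12 that fell most (bottom), as TPM + 1 on a log2 axis, with 1 symbol per library for the 12 and 16 dpp groups and a black line at the group mean. Every Prdm9-/- 16 dpp library (triangles) lies above the non-mutant 12 dpp libraries (circles) in the top panel and below them in the bottom panel, which the choice of genes fixes, while the non-mutant 16 dpp libraries (diamonds) mark where each gene stands at the same age.

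RefSeq promoter windows of GRCm38.p6 were found for 9 of these 12 risen genes, and those of the 4 that rose most among the 9 are shown because these genes head the list. Each gives the 250 bases before the start site, 5′ to 3′ on the gene's strand, with motif matches in capitals. Aqp8 is at chr7:123462044-123462293 (plus strand), Car7 at chr8:104534450-104534699 (plus strand), Hsd3b6 at chr3:98814444-98814693 (minus strand) and Tsx at chrX:103414217-103414466 (plus strand).
Aqp8: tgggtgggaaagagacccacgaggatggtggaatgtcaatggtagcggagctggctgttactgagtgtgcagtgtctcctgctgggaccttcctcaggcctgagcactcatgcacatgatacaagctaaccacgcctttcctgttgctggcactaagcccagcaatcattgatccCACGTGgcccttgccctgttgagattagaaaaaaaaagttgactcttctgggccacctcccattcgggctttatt
Car7: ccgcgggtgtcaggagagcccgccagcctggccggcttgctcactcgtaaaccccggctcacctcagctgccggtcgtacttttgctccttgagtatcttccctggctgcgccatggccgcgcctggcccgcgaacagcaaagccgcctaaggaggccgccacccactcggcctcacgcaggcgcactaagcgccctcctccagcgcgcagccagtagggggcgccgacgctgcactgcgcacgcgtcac
Hsd3b6: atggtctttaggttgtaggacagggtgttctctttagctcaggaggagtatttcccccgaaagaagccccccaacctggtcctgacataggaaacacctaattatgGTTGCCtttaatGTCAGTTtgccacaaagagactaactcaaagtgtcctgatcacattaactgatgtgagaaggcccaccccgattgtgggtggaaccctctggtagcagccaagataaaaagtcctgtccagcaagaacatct
Tsx: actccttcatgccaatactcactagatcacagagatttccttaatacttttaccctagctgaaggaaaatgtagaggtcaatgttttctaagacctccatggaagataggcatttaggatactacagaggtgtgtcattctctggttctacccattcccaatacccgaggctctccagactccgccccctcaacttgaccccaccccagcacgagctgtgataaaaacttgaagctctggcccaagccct
The letters searched, on both strands, were AACTGNC (the MYB motif), GTTGCC (part of an RFX site), CACGTG (an E-box) and GGCGGGA (an E2F site). The Aqp8 window held 1 E-box, the Hsd3b6 window 1 MYB and 1 RFX match, and the other 2 windows none. Of 10966 tested genes with a window, 9.18% held the MYB letters, 10.5% the RFX letters, 8.5% the E-box and 18.5% the E2F letters. Among the 1054 risen genes with a window the shares were 11.2%, 10.6%, 7.21% and 17.6%, and among the 818 fallen genes 9.05%, 9.66%, 9.66% and 21.5%. A match describes the letters in the window and nothing more.

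The genes that fell most were led by Sel1l3 and by Epha2, a receptor tyrosine kinase for ephrins. Sel1l3 was at 11.1, 11.02, 6.02, 8.74 and 7.59 TPM in the mutants and at 48.96, 45.6, 59.8, 61.9 and 67.2 TPM in the 12 dpp non-mutants (log2 fold change -2.56, SE 0.157, adjusted p = 2.96e-06). Epha2 was at 9.73, 7.37, 4.9, 6.69 and 3.91 TPM against 39.8, 30.8, 28.1, 63.2 and 37.6 TPM (log2 fold change -2.44, SE 0.231, adjusted p = 4.95e-05). For both, the 12 dpp mutants lay with the 12 dpp non-mutants, at 45 to 84.98 and 24.3 to 72.4 TPM, and the 16 dpp non-mutants with the 16 dpp mutants, at 5.46 to 19.4 and 4.87 to 16.8 TPM. Tnfrsf12a, the receptor of the cytokine TWEAK, was the most abundant of the 12, at 71.6, 78.7, 64.2, 68.7 and 76.7 TPM against 353, 184, 153, 245 and 203 TPM (log2 fold change -1.59, adjusted p = 0.000116). Ctsh, the lysosomal protease cathepsin H, was at 13.1, 12.7, 13.01, 16.4 and 18.1 TPM against 43.3, 40.98, 43.7, 49.4 and 50.3 TPM (log2 fold change -1.58, adjusted p = 5.88e-06).

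The remaining 8 fell by 1.51 to 1.96 on the log2 scale. They were Lpcat2, an acyltransferase of membrane lipids; Slc1a6, a glutamate transporter; Hoxb9, a homeobox gene; Cadps, which primes secretory vesicles; Hrk, a BH3-only activator of apoptosis; Lpl, lipoprotein lipase; Cadm3, an adhesion molecule; and Shisa8. Slc1a6 was at 4.5 to 5.88 TPM in the mutants against 19.7 to 27.1 TPM, and Hoxb9 at 3.56 to 6.72 TPM against 16.1 to 23.3 TPM. Lpl was at 9.96, 7.48, 10.7, 8.79 and 6.49 TPM against 21.02, 26.5, 25.4, 43.9 and 22.97 TPM, with the highest value in Prdm9+/- 12 dpp replicate 3. Hrk was low in both groups, at 1.04 to 1.83 TPM against 4.98 to 8.14 TPM. In each of these 8 genes the range of the 16 dpp non-mutants overlapped that of the 16 dpp mutants.

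Of 24 genes of undifferentiated spermatogonia, 21 were tested, 1 rose and 7 fell, and their median log2 fold change was -0.35. Shisa6, a marker of stem and early progenitor cells, was at 2.54, 2.29, 1.63, 3.05 and 1.56 TPM in the mutants against 5.4, 6.06, 6.27, 7.8 and 5.13 TPM (log2 fold change -1.16, adjusted p = 0.000601), without overlap. Egr4, a transcription factor, was at 17.3 to 25.4 TPM against 26.7 to 43.9 TPM (log2 fold change -0.70). Ret, the receptor that senses GDNF, was at 8.71 to 12.8 TPM against 12.7 to 18.7 TPM (log2 fold change -0.53), with overlap. Neurog3, a factor of progenitor cells, was at 0.78 to 3.42 TPM against 3.19 to 5.14 TPM, and its call was lost in 6 of 18 alternatives. Id4, a marker of stem cells that other cells of the testis also express, went the other way at 24.7, 30.3, 26.3, 24.4 and 22.2 TPM against 16.2, 16.2, 10.9, 13.1 and 14.2 TPM (log2 fold change 0.82, adjusted p = 0.000801), and stood at 26.6 to 43.1 TPM in the 16 dpp non-mutants. The count of fallen members rests on the filter and on single libraries: it was 2 with no filter on low values, 4 without Prdm9+/+ 12 dpp replicate 1, Prdm9+/- 12 dpp replicate 2 or the library labelled Prdm9+/- 12 dpp replicate 4, 3 without Prdm9-/- 16 dpp replicate 2 or 3, and 2 without replicate 5.

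Of 21 tested genes of differentiating spermatogonia and meiotic entry, 6 rose and 4 fell (median 0.06). With all 30 libraries in 1 fit 1 rose and 2 fell, and with no filter 3 rose and 1 fell. Stra8, which drives meiotic entry under retinoic acid, was at 219.8, 202, 211, 207 and 180.3 TPM against 167, 147, 165, 158 and 163 TPM (log2 fold change 0.35, adjusted p = 0.00324). Its partner Meiosin, listed as Gm4969, was at 71.1 to 111 TPM against 49.3 to 76.9 TPM (log2 fold change 0.55), a call lost in 5 of 18 alternatives. Prss50, a testis protease, was at 195, 189, 197, 166 and 207 TPM against 67.8, 101, 77.1, 132 and 126 TPM (log2 fold change 0.95). Tex101, a surface protein of germ cells, was the most abundant, at 668, 633, 643, 611 and 781 TPM against 233, 339.8, 218, 379 and 325 TPM (log2 fold change 1.18, adjusted p = 0.000209). The spermatogonial cyclin Ccnd2 was lower in every mutant library, at 44.6, 35.5, 37.6, 44.3 and 32.7 TPM against 59.7, 61.9, 64.5, 77.3 and 69.6 TPM (log2 fold change -0.76, adjusted p = 0.000421). Dmrt1, a factor that holds back meiotic entry, was at 163 to 187 TPM against 180.3 to 234 TPM (log2 fold change -0.30). Dnmt3b and Sohlh1 also fell, by 0.56 and 0.43, with overlapping libraries, and the call of Sohlh1 was lost in 10 of 18 alternatives. Among 24 genes of DNA replication 2 rose and 0 fell, a share near the 7.99% of all rows: Top2a, the replicative topoisomerase, at 174 to 215 TPM against 131 to 178 TPM, and Ccne2, at 39.9 to 53.6 TPM against 24.7 to 43.8 TPM. Without the library labelled Prdm9+/- 12 dpp replicate 4, 4 of them rose. Pcna, the sliding clamp, was at 212 to 247 TPM against 177 to 240.04 TPM and was not called.

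Of 21 tested break and recombination genes, 10 rose and 0 fell, with a median log2 fold change of 0.45, and 6 rose with no filter. Spo11, the enzyme that cuts the chromosomes, was at 17.6, 18.7, 12.9, 14.8 and 15.6 TPM in the mutants and at 4.77, 8.1, 6.25, 8.8 and 8.91 TPM in the 12 dpp non-mutants (log2 fold change 1.04, SE 0.16, adjusted p = 0.00121). All 5 mutants lay above all 5 non-mutants, and inside or below the 15.9 to 26.3 TPM of the 16 dpp non-mutants. Gm960, which encodes the SPO11 partner TOPOVIBL, was at 12.9, 13.6, 10.2, 12.6 and 12.7 TPM against 6.34, 8.1, 8.8, 8.42 and 7.78 TPM (log2 fold change 0.59, adjusted p = 0.00471). Rad51ap2 rose most, at 16.3, 28.5, 13.9, 17.9 and 24.02 TPM against 5.25, 7.09, 4.37, 10.95 and 5.54 TPM (log2 fold change 1.48, adjusted p = 0.00114). Mnd1, a cofactor of the recombinase DMC1 in strand exchange, was at 14.99, 21.6, 18.6, 20.2 and 18.8 TPM against 13.4, 12.8, 12.6, 14.1 and 13.2 TPM (log2 fold change 0.47, adjusted p = 0.00815). The other risen members were Meiob, Dmc1, Fignl1, Ccdc36, Psmc3ip and Hsf2bp, with log2 fold changes of 0.45 to 1.43. The general repair genes Brca1 and Brca2 had log2 fold changes of 0.07 and 0.10 and were not called, and Atm was at -0.12.

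Among 16 tested crossover genes 7 rose and 0 fell (median 0.33). With no filter 5 rose, as with all 30 libraries in 1 fit. Hfm1, a helicase needed for crossovers, was at 39.9, 46.9, 29.1, 34.2 and 44.1 TPM against 17.5, 19.7, 16.4, 26.01 and 23.04 TPM (log2 fold change 0.89, adjusted p = 0.00185). Msh5, which stabilises recombination intermediates, was at 26.4, 24.7, 22.8, 23.4 and 28.9 TPM against 11.5, 14.6, 11.7, 18.9 and 17.8 TPM (log2 fold change 0.74, adjusted p = 0.00369). Both overlapped the range of the 16 dpp non-mutants, and the next 2 genes lay wholly below it. Cntd1, a cyclin-like protein of late crossover sites, was at 23.95, 31.3, 21.7, 26.1 and 32.3 TPM against 8.12, 15.5, 8.71, 13.1 and 9.47 TPM (log2 fold change 1.25, adjusted p = 0.000514), with 39.2 to 91.1 TPM in the 16 dpp non-mutants. 1700102P08Rik is counted among the 7 risen members, but its place among crossover factors is uncertain. It was at 15.7, 19.4, 13.2, 13.6 and 22.95 TPM against 6.6, 6.96, 1.71, 7.56 and 6.81 TPM (log2 fold change 1.45, adjusted p = 0.00482), with 39.9 to 119.8 TPM in the 16 dpp non-mutants.

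Of 18 genes of the chromosome axis and synaptonemal complex, 12 rose, against 7.99% of all rows, and 1 fell. Their median log2 fold change was 0.54. The 12 risen members hold Meikin, which passed the filter through the mutants alone. Hormad1, an axis protein that marks unsynapsed chromosomes, was at 181, 277, 158, 190.5 and 266 TPM in the mutants and at 66.4, 91.5, 60.8, 101 and 103 TPM in the 12 dpp non-mutants (log2 fold change 1.33, SE 0.18, adjusted p = 0.000508). Sycp1, which forms the transverse filaments that join paired axes, was at 178, 264, 149, 185 and 223 TPM against 88.97, 113, 90.7, 122 and 126 TPM (log2 fold change 0.87, adjusted p = 0.00199). The axis genes Sycp2 and Sycp3 were at 98.2, 116, 82.98, 99.01 and 112 TPM and 321, 464, 293, 321 and 413 TPM in the mutants. In the 12 dpp non-mutants they were at 44.7, 52.7, 43.8, 58.5 and 60.1 TPM and 169, 205, 138, 244 and 235 TPM, with log2 fold changes of 0.96 and 0.88. In all 4 genes the mutant libraries lay wholly above the 12 dpp non-mutants and overlapped the 16 dpp non-mutants, which held 180.04 to 308 TPM of Hormad1 and 345 to 485 TPM of Sycp3. Within 16 dpp litters, Sycp2, Sycp3 and the sum of the list were higher in the mutant in 1 of 5 pairs. Hormad1 and Sycp1 were higher in 2 of 5. Rad21, the mitotic cohesin subunit, was the member that fell, at 180.2, 208, 158, 194 and 181 TPM against 219, 219, 237, 214 and 229.98 TPM (log2 fold change -0.28, adjusted p = 0.0173). With all 30 libraries in 1 fit, 5 of the 18 genes rose.

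Of 9 genes that tie telomeres to the nuclear envelope, 4 rose and 1 fell (median 0.48), and 2 rose with all 30 libraries in 1 fit. Ccdc155, the outer-membrane protein that links telomeres to the motor, was at 17.5, 16.7, 17.8, 17.9 and 20.1 TPM against 6.88, 10.03, 8.19, 11.7 and 9.71 TPM (log2 fold change 0.90, adjusted p = 0.000658). Spdya, an activator of CDK2 at telomeres, was at 17.6 to 26.8 TPM against 7.56 to 13.3 TPM (log2 fold change 0.93). Terb2 and Majin, members of the complex that anchors telomeres to the inner membrane, were at 5.94 to 6.77 and 10.8 to 14.3 TPM against 2.54 to 4.66 and 4.48 to 9.55 TPM. Syne2, a nuclear envelope linker of many cell types, fell by 0.49 with overlapping libraries, a call lost in 8 of 18 alternatives.

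Among 22 tested genes for sensing asynapsis, DNA damage and the p53 family, 6 rose and 0 fell (median 0.11). With no filter 4 rose, as with all 30 libraries in 1 fit. Atr, the kinase that signals from unsynapsed axes, was at 103, 114, 86.02, 101 and 102 TPM against 63.01, 65.9, 69.1, 78.6 and 77.9 TPM (log2 fold change 0.51, adjusted p = 0.00204). Mdc1, which spreads that signal into chromatin, was at 72.3, 60.04, 61.2, 72.9 and 62.9 TPM against 37.1, 39.9, 46.9, 53.1 and 44.1 TPM (log2 fold change 0.57, adjusted p = 0.00229). H2afx, the histone that ATR phosphorylates, was at 75.6, 89.7, 80.02, 71.7 and 77.6 TPM against 44.3, 54.5, 44.5, 67.6 and 53.1 TPM (log2 fold change 0.58, adjusted p = 0.00371). Cdkn1a, the p21 inhibitor of cell division and a target of p53, was at 19.1, 26.1, 31.4, 27.04 and 29.3 TPM against 16.7, 13.03, 12.5, 16.1 and 15.6 TPM (log2 fold change 0.80, adjusted p = 0.0018). The first 3 overlapped the range of the 16 dpp non-mutants, which held 87.6 to 137 TPM of Atr. For Cdkn1a the 16 dpp non-mutants held 15.2 to 24.04 TPM, and 4 of the 5 mutants were above that range.

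Of 20 tested transcription regulators of the pachytene programme, 11 rose and 0 fell (median 0.37), and 7 rose with all 30 libraries in 1 fit. Zfp541, a chromatin regulator that works with KCTD19, was at 24.3, 25.1, 20.1, 21.5 and 24.3 TPM in the mutants against 7.52, 11.1, 9.39, 15.2 and 11.1 TPM (log2 fold change 1.05, SE 0.148, adjusted p = 0.000667). Its 16 dpp non-mutant libraries held 19.7 to 33.6 TPM, which covers the mutant values. Brdt, a testis bromodomain protein, was at 39.6, 56.3, 29.9, 35.98 and 47.7 TPM against 16.2, 17.5, 15.4, 19.9 and 23.2 TPM (log2 fold change 1.12, adjusted p = 0.000651). Sox30, a factor of late spermatocytes and early spermatids, was at 7.72, 9.59, 6.43, 7.27 and 8.23 TPM against 4.26, 4.05, 3.43, 4.18 and 4.28 TPM (log2 fold change 0.80, adjusted p = 0.00121), with 9.31 to 17.01 TPM in the 16 dpp non-mutants. Mybl1, the A-MYB factor that drives pachytene genes and is given here after its values were seen, had a log2 fold change of 0.48 (adjusted p = 0.0159).

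Of 32 pachytene and diplotene genes, 23 were tested, 10 rose and 0 fell, with a median log2 fold change of 0.39, and 9 were too low for the test. With all 30 libraries in 1 fit 7 rose, and 7 to 11 rose when 1 library was left out. Their summed level was 427 to 531 TPM in the mutants, 349 to 388 TPM in the 12 dpp non-mutants and 856 to 3878 TPM in the 16 dpp non-mutants. Hspa2, the spermatocyte heat shock protein needed to leave prophase, was at 96.6, 116, 85.2, 95.4 and 104 TPM against 50.2, 58.1, 49.1, 68.97 and 51.4 TPM (log2 fold change 0.83, SE 0.103, adjusted p = 0.000282). Ybx2, which stores messengers in spermatocytes and spermatids, was at 68.8, 54.3, 54.9, 62.7 and 57.2 TPM against 19.01, 31.2, 27.9, 37.2 and 23.6 TPM (log2 fold change 1.10, adjusted p = 0.000446). Clgn, a chaperone of sperm surface proteins, was at 22.02, 21.3, 17.4, 16.5 and 22.2 TPM against 10.3, 11.6, 8.17, 12.9 and 10.4 TPM (log2 fold change 0.84, adjusted p = 0.00118). In these 3 genes every mutant library lay between the non-mutant groups: the 16 dpp non-mutants held 139 to 346 TPM of Hspa2, 116 to 354 TPM of Ybx2 and 42.3 to 142 TPM of Clgn. Adam2, a sperm surface protein, is among the 10 risen genes and passed the filter through the mutants alone. It was at 2.1, 1.55, 1.29, 1.23 and 2.93 TPM against 0.28, 0.38, 0.28, 0.29 and 0 TPM, with 7.41 to 64.2 TPM in the 16 dpp non-mutants.

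Several genes of this list that are abundant in normal 16 dpp testes were far below that level in the mutants, and the following 5 are named after their values were seen. Piwil1, the pachytene PIWI protein, was at 3.29 ± 0.71 TPM in the mutants, 3.46 ± 0.68 TPM in the 12 dpp non-mutants and 70.4 ± 48.9 TPM in the 16 dpp non-mutants (mean ± SD, n = 5 each), and its log2 fold change of -0.06 was not called. Tcp11 and Spink2, both needed for sperm function, were at 1.94 ± 0.68 and 1.22 ± 0.82 TPM in the mutants against 2.67 ± 1.23 and 1.27 ± 0.43 TPM, with 39.2 ± 37.6 and 42.1 ± 39.2 TPM in the 16 dpp non-mutants (mean ± SD, n = 5 each). Ldhc, the testis lactate dehydrogenase, rose from 2.35 ± 1.08 to 4.53 ± 1.17 TPM (log2 fold change 0.74, adjusted p = 0.029), and its level in the 16 dpp non-mutants was 288 ± 235 TPM. Fabp9, a fatty acid binding protein of spermatids, rose from 3.9 ± 1.88 to 13.1 ± 4.34 TPM (log2 fold change 1.59, adjusted p = 0.00471), against 219 ± 148 TPM. The 16 dpp non-mutants varied widely in these genes, and no test between them and the mutants was run.

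**Figure D2:**
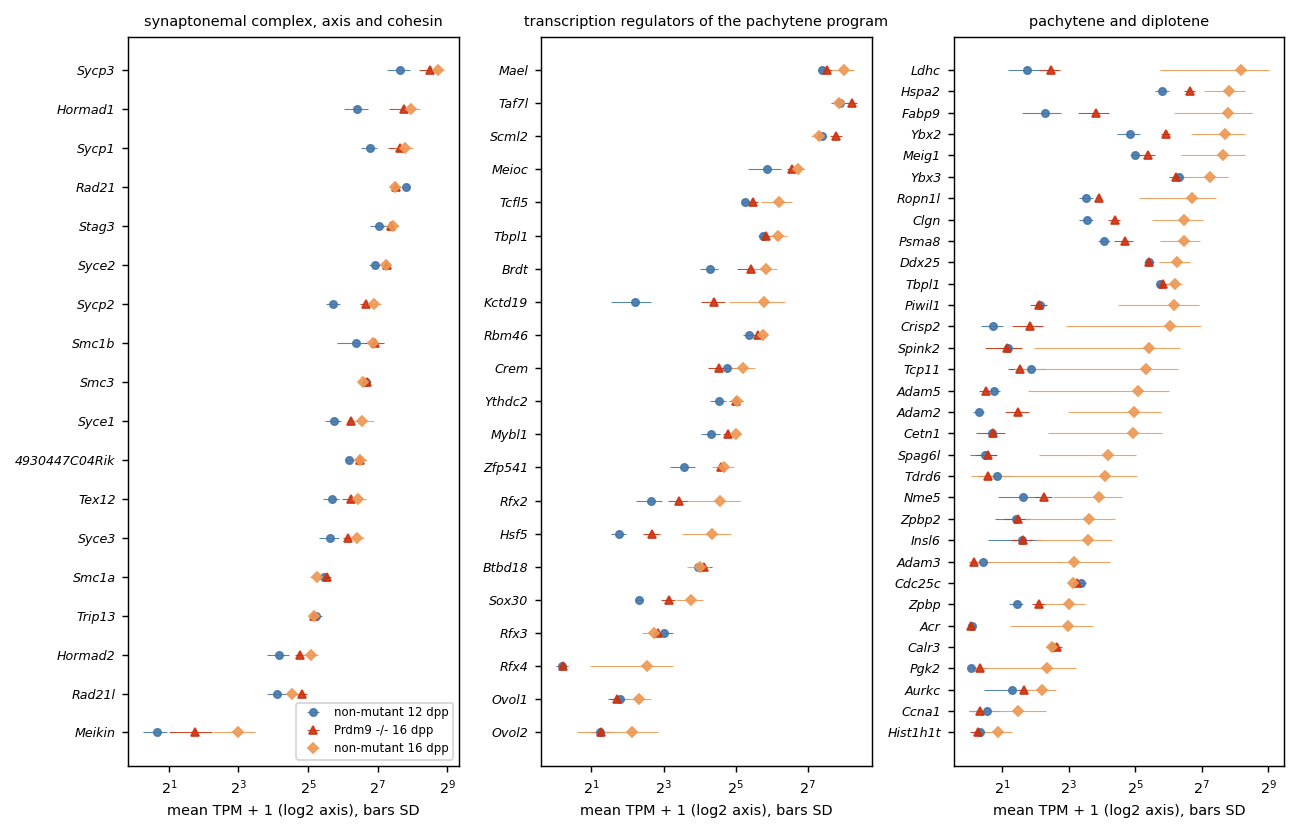
Mean level of every gene of 3 lists, as TPM + 1 on a log2 axis with bars of 1 SD (n = 5 libraries a group), ordered by the level in non-mutant 16 dpp libraries (diamonds). For axis genes such as Hormad1 and Sycp3 the Prdm9-/- 16 dpp means (triangles) lie near the diamonds, while for pachytene genes such as Ldhc, Piwil1 and Tcp11 they lie near the non-mutant 12 dpp means (circles).

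Genes of later sperm structures split by gene. Of 57 axoneme and flagellum genes in the table, 28 were tested, 4 rose and 1 fell (median 0.12), and 2 rose with all 30 libraries in 1 fit. Of all rows tested, 7.99% rose and 6.74% fell. Rsph1, a radial spoke head protein, rose most, at 79.1, 82.1, 77.7, 73.9 and 122 TPM against 24.7, 27.9, 20.4, 23.03 and 22.02 TPM (log2 fold change 1.82, SE 0.129, adjusted p = 7.75e-06), and was at 127 to 461 TPM in the 16 dpp non-mutants. Cfap69 and Cfap57, cilia and flagella associated proteins, were at 6.42 to 10.9 and 1.34 to 2.15 TPM against 2.74 to 5.26 and 0.49 to 1.17 TPM. The rise of Odf2, of outer dense fibres and centrioles, was 0.25 (adjusted p = 0.0491), and it was lost in 14 of 18 alternatives. Among 26 genes of an acrosome list 11 were tested, 6 rose and 0 fell (median 0.68). The list also holds Tex101 and Ly6k, which are surface proteins and are among the 6. Spesp1, an equatorial segment protein, was at 3.31, 4.35, 3.68, 4.86 and 6.67 TPM against 0.71, 1.09, 0.9, 1.35 and 1.36 TPM (log2 fold change 1.40, adjusted p = 0.000282). Ly6k, a surface protein that works with TEX101, was at 122, 157, 124, 109 and 154 TPM against 38.2, 66.4, 35.8, 74.5 and 68.2 TPM (log2 fold change 1.27, adjusted p = 0.00123). Dkkl1, an acrosomal protein, was at 4.55, 4.58, 4.81, 4.91 and 5.7 TPM against 1.46, 1.8, 2.31, 2.16 and 1.93 TPM (log2 fold change 1.02), far below the 13.3 to 155 TPM of the 16 dpp non-mutants. Tex101 and Zpbp, which other lists also hold, made up the risen 6 with Spaca1. Of 24 spermatid genes 3 were tested and 0 were called.

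In the piRNA pathway, which silences transposons and makes the small RNAs of spermatocytes, 5 of 25 tested genes rose and 0 fell (median 0.06). Mov10l1, the helicase that starts piRNA processing, was at 125, 123, 99.4, 121 and 119 TPM against 93.7, 87.5, 74.2, 91.6 and 96.5 TPM (log2 fold change 0.40, adjusted p = 0.00698). Gpat2, Tdrkh and Stk31 rose by 0.41, 0.34 and 0.34. With all 30 libraries in 1 fit, 0 of the 25 were called. The table has 105 piRNA precursor loci, of which 3 were tested and 0 called; with no filter 6 of 83 rose. The summed level of the 105 was 19.7, 36.8, 16.9, 35.5 and 37.7 TPM in the mutants and 15.8, 19.6, 16.9, 20.7 and 19.4 TPM in the 12 dpp non-mutants. It was 56.1 to 225 TPM in the 16 dpp non-mutants. Among 8 tested autosomal retrogenes with X-linked parents, which can stand in when the X is silent, 3 rose and 1 fell. Pdha2, a pyruvate dehydrogenase subunit, was at 13.01, 15.5, 10.7, 14.3 and 16.8 TPM against 5.62, 6.09, 5.17, 5.6 and 5.49 TPM (log2 fold change 1.18, adjusted p = 0.0001), and Tktl2, a transketolase-like enzyme, at 6.67 to 13.8 TPM against 3.12 to 6.69 TPM. Rbmxl2 rose by 0.31 and Rbmxl1 fell by 0.29 on the log2 scale, calls lost in 11 and 8 of 18 alternatives.

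Among 24 cyclins and kinases of the division that follows prophase, 5 rose and 0 fell (median 0.05). Ccnb3, an X-linked cyclin of early meiotic prophase, was at 36.2, 47.4, 25.8, 32.1 and 40.3 TPM in the mutants and at 8.15, 11.6, 11.7, 17.5 and 14.9 TPM in the 12 dpp non-mutants (log2 fold change 1.45, SE 0.189, adjusted p = 0.000379). Every mutant library also lay above the 13.8 to 18.6 TPM of the 16 dpp non-mutants. Cdk1, the kinase of cell division, was at 108, 123, 92.3, 99.03 and 111 TPM against 67.6, 73.1, 57.7, 70.3 and 68.97 TPM (log2 fold change 0.65, adjusted p = 0.000448). Cdc20, an activator of the anaphase-promoting complex, and Bub1, a checkpoint kinase, both rose by 0.51. Cdk1, Cdc20 and Bub1 stood at levels that overlap the 16 dpp non-mutants.

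A higher share of rows rose on the sex chromosomes than on the autosomes, a difference given as counts with no test. Of 663 X-linked rows tested, 129 rose (19.5%) and 55 fell (8.30%), and on the autosomes 8.70% of 13775 rows rose and 7.50% fell. The 129 hold 5 rows that passed the filter through the 16 dpp mutants alone, as did 42 of all 17875 rows tested. The share of X-linked rows that rose was 15.95 to 19.82% when 1 library was left out at a time, and 19.4% without the library labelled Prdm9+/- 12 dpp replicate 4. Of 13 Y-linked rows 4 rose and 0 fell, and 2 rose without Prdm9-/- 16 dpp replicate 2 or 5. Among the X-linked genes on a list of those that spermatocytes silence, most of them active in many tissues, 38 were tested, 5 rose and 4 fell, with a median of -0.0066. The summed level of these genes was 3402 to 3817 TPM in the mutants, 3504 to 3981 TPM in the 12 dpp non-mutants and 2774 to 3550 TPM in the 16 dpp non-mutants. Tex16 and Tktl1, both germ-line genes, rose by 0.68 and 0.51 with overlapping libraries, and the call of Tktl1 was lost in 2 of 18 alternatives. The risen members also held Fmr1, at 103 to 154 TPM against 84.96 to 112 TPM, and Ube2a, at 22.6 to 35.1 TPM against 18.6 to 23.97 TPM. Both had overlapping libraries, and their calls were lost in 4 and 10 of 18 alternatives. Ogt, the enzyme that adds GlcNAc to proteins, was at 117, 114, 98.8, 119.6 and 93.4 TPM against 152, 140.4, 147, 173 and 158 TPM (log2 fold change -0.50, adjusted p = 0.00167). Nono, an RNA-binding protein, fell by 0.23. Leaving out 1 library at a time gave 2 to 7 risen and 2 to 5 fallen members of these 38.

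**Figure D3:**
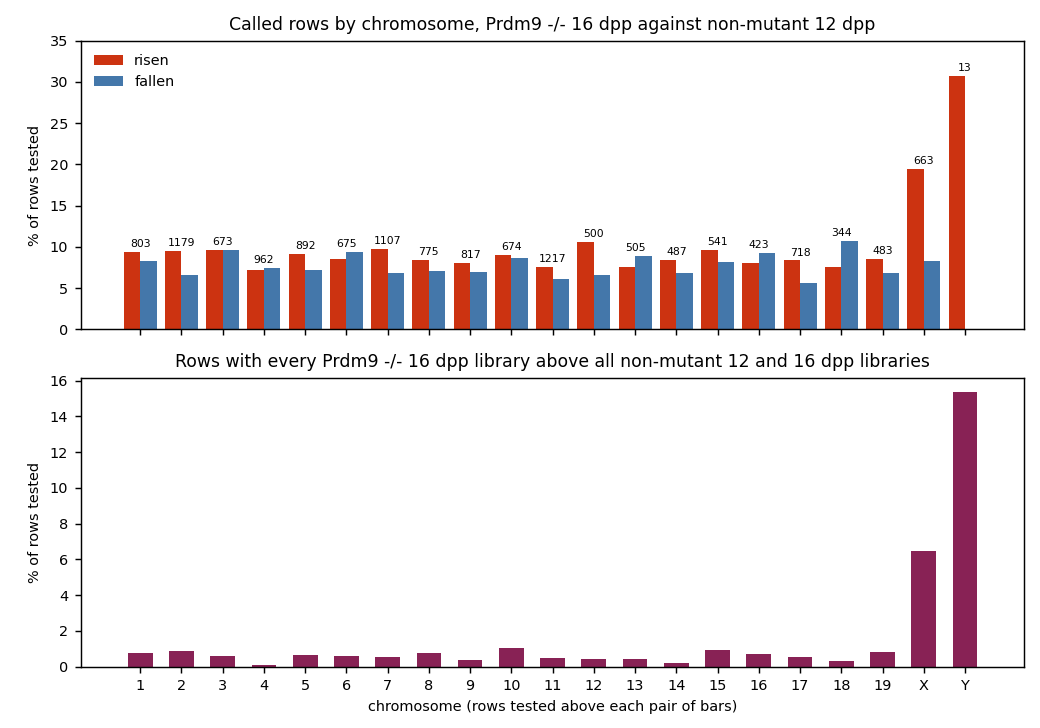
Top: percent of tested rows that rose or fell on each chromosome, with the number of rows tested above each pair of bars. Bottom: percent of tested rows in which all 5 Prdm9-/- 16 dpp libraries lay above all non-mutant 12 and 16 dpp libraries. X (19.5% risen, 6.49% above both ages) and Y (13 rows only) stand above the autosomes in both panels.

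Other X-linked genes with strong changes were found in both directions. Pet2 was at 34.3, 43.8, 29.9, 36.9 and 41.1 TPM in the mutants against 9.99, 13.7, 11.8, 17.4 and 17.1 TPM (log2 fold change 1.36, adjusted p = 0.000136), with 15.97 to 19.5 TPM in the 16 dpp non-mutants. Cypt1, of the cysteine-rich perinuclear theca family, was at 1.71, 1.02, 1.43, 1.28 and 1.38 TPM in the mutants and was listed at 0 in all 10 non-mutant libraries of 12 and 16 dpp, so that it passed the filter through the mutants alone. Bex2 was at 97.9 to 121 TPM against 154 to 211 TPM (log2 fold change -0.86), Tceal9 at 273 to 326 TPM against 415 to 455 TPM (log2 fold change -0.51), and Hmgb3, a chromatin protein, at 326 to 385 TPM against 451 to 526 TPM (log2 fold change -0.46). These 3 fallen genes overlapped the range of the 16 dpp non-mutants.

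Some genes of the mutant lay outside both the 12 dpp and the 16 dpp non-mutants. In 136 of the 17875 rows (0.761%) every Prdm9-/- 16 dpp library was above all 10 non-mutant libraries, and in 8 (0.0448%) every one was below. Of the 136 rows, 124 were also called risen, and 7 of the 8 fallen. By position, 43 of the 136 were on X, 2 on Y, 81 on other chromosomes, and 10 had no position. These 43 were 6.49% of the X-linked rows tested, against 0.588% on the autosomes. Rows that passed the filter through the mutants alone are included and were not counted apart. With median-ratio scaling, 79 rows were above, 42 of them on X, 2 on Y and 26 on other chromosomes, and 17 were below. Without the library labelled Prdm9+/- 12 dpp replicate 4, 155 rows were above and 10 below. Leaving out 1 library at a time gave up to 19 rows below, without Prdm9-/- 16 dpp replicate 1.

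Among the rows above both ages, Zfy1 and Zfy2, the Y-linked zinc finger genes whose expression in pachytene kills spermatocytes, were the only Y-linked ones. Zfy1 was at 11.7, 17.02, 8.31, 12.4 and 12.8 TPM in the mutants, 2.73, 3.32, 2.74, 4.16 and 2.99 TPM in the 12 dpp non-mutants and 4.99 to 5.56 TPM in the 16 dpp non-mutants (log2 fold change against 12 dpp 1.66, SE 0.167, adjusted p = 7.17e-05). Zfy2 was at 15.1, 24.1, 9.56, 15.2 and 19.04 TPM, 2.04, 2.67, 1.27, 5.06 and 5.01 TPM and 4.95 to 6.73 TPM in the same groups (log2 fold change 2.11, SE 0.287, adjusted p = 0.000518). The genes are near-identical copies, and how their reads were divided is uncertain. Zfy1 and Zfy2 were high in every mutant library, lowest in Prdm9-/- 16 dpp replicate 3. The X-linked row Scml1 bears the name of a Polycomb family gene and is annotated in GENCODE M21 as a long non-coding RNA. It was at 21.95, 38.5, 20.6, 20.3 and 29.4 TPM against 4.79, 7.37, 5.48, 7.12 and 4.87 TPM, with 7.6 to 13.8 TPM in the 16 dpp non-mutants (log2 fold change 1.95, adjusted p = 4.69e-05). Rhox2d, an X-linked homeobox gene with close copies, was at 6.77, 6.41, 7.56, 6.21 and 7.72 TPM against 1.97, 1.82, 1.41, 2.38 and 1.66 TPM, with 2.59 to 3.99 TPM in the 16 dpp non-mutants (log2 fold change 1.48).

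The other 3 genes of this kind named by the rule were autosomal. Creg1, a secreted glycoprotein, was at 77.3, 81.5, 76.7, 78.1 and 86.6 TPM against 42.2, 44.04, 36.7, 43.3 and 44.3 TPM (log2 fold change 0.91, adjusted p = 9.88e-06), and the 16 dpp non-mutants reached 56.3 to 74.8 TPM. Pros1, protein S, which lets Sertoli cells and macrophages recognise dying cells, was at 47.9, 52.1, 52.5, 52.7 and 54.5 TPM against 31.4, 33.5, 29.1, 27.8 and 31.02 TPM (log2 fold change 0.75, adjusted p = 4.95e-05), with 34.7 to 42.9 TPM in the 16 dpp non-mutants. Slc26a10, which passed the filter through the mutants alone, was low throughout, at 2.91 to 4.3 TPM against 0.26 to 0.89 and 0.84 to 2.48 TPM. Below both ages, Socs2, a brake on cytokine signalling, was at 15.1, 18.8, 17.9, 17.98 and 17.9 TPM against 35.9, 45.3, 51.7, 59.5 and 45.4 TPM (log2 fold change -1.38, adjusted p = 2.65e-05), with 19.02 to 24.3 TPM in the 16 dpp non-mutants. Cfap43, a flagellar protein, was at 7.02, 6.61, 5.6, 7.02 and 6.68 TPM against 14.99, 15.1, 8.19, 25.9 and 17.6 TPM (log2 fold change -1.11, adjusted p = 0.0048), with 8.3 to 22.1 TPM. Nol4l and Grtp1 fell by 0.60 and 0.56, and Cystm1 by 0.34, a call lost in 10 of 18 alternatives.

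**Figure D4:**
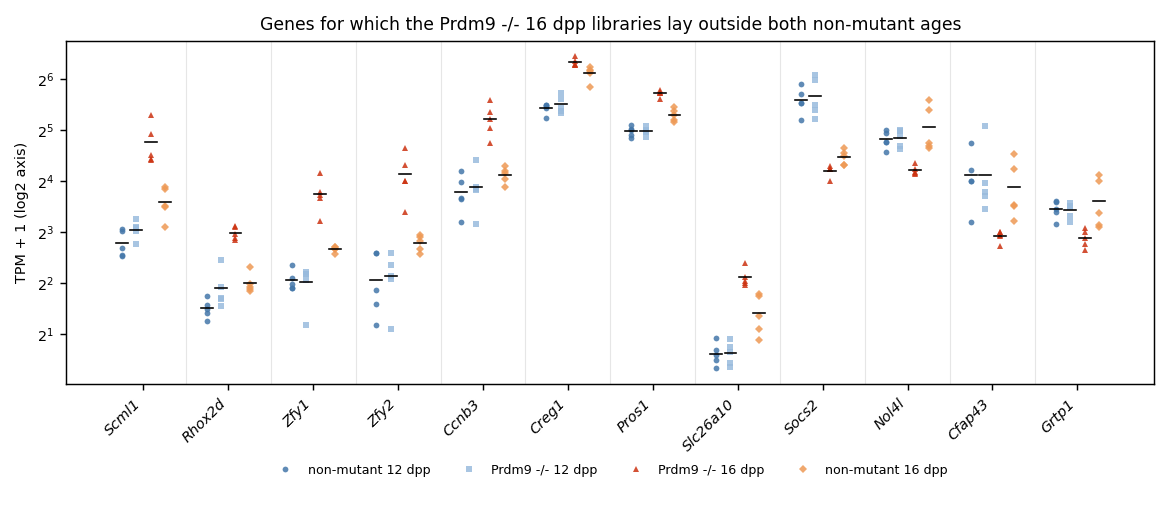
Level of 12 genes for which every Prdm9-/- 16 dpp library (triangles) lay outside the non-mutant libraries of both ages, as TPM + 1 on a log2 axis with 1 symbol per library and a black line at the group mean. The first 8 genes lie above, from Scml1 (20.3 to 38.5 TPM) to Slc26a10, and the last 4 below, from Socs2 (15.1 to 18.8 TPM) to Grtp1, which the choice of genes fixes.

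Of 12 tested partners of PRDM9 and members of the Morc family, 1 rose, a share near the 7.99% of all rows. In this list 3 fell, Prdm9 among them (median -0.07), against 6.74% of all rows. With no filter 0 of the list were called, with all 30 libraries in 1 fit 1 fell, and 1 fell without Prdm9+/- 12 dpp replicate 2 or 3 or Prdm9-/- 16 dpp replicate 2, 3 or 5. Zcwpw1, a reader of the marks that PRDM9 leaves, was at 199, 181, 181, 189 and 179.6 TPM against 128, 156, 129, 159 and 169 TPM (log2 fold change 0.33, adjusted p = 0.0153). Morc1, which helps to silence transposons, was at 19.1, 18.1, 16.96, 18.7 and 13.6 TPM against 27.6, 22.6, 26.2, 19.4 and 32.1 TPM (log2 fold change -0.53, adjusted p = 0.0181). The fall of Ehmt2, a histone methyltransferase, was 0.24 with overlapping libraries, and its call was lost in 11 of 18 alternatives. Of 10 genes of DNA methylation, 0 rose and 4 fell (median -0.21), and 2 fell with no filter. Tet3, which oxidises methylcytosine, was at 35.1, 28.3, 25.4, 33.9 and 22.7 TPM against 43.5, 36.9, 48.9, 51.4 and 44.5 TPM (log2 fold change -0.63, adjusted p = 0.00542), and the methyltransferases Dnmt3a and Dnmt3b fell by 0.40 and 0.56. Among 7 tested histone variants H2afx rose, and H3f3a and H2afy2 fell. H3f3a, which encodes the replacement histone, was at 1009, 1054, 936, 1018 and 1038 TPM against 1292, 1215, 1225, 1347 and 1267 TPM (log2 fold change -0.33, adjusted p = 0.00187).

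Somatic markers were present in every library although the samples are labelled as germ cells. Of 28 Sertoli cell genes, 27 exceeded 1 TPM in all 10 libraries, and their sum was 13423 to 15334 TPM in the mutants and 14056 to 17112 TPM in the 12 dpp non-mutants. Of these genes 4 rose and 7 fell (median -0.17). Amh, the hormone of immature Sertoli cells, was at 98.1, 90.6, 102, 88.8 and 89.3 TPM in the mutants and at 245, 233, 204, 272 and 249 TPM in the 12 dpp non-mutants (log2 fold change -1.35, SE 0.0763, adjusted p = 2.96e-06), and at 92.3 to 133 TPM in the 16 dpp non-mutants. Dhh, the hedgehog ligand of Sertoli cells, was at 84.4 to 92.6 TPM against 115 to 145 TPM (log2 fold change -0.51), Aard at 1324 to 1627 TPM against 1927 to 2214 TPM, and Rhox8 at 190.4 to 257 TPM against 253 to 307 TPM. Espn, of the actin bundles at Sertoli cell junctions, rose from 112 to 122 to 164 to 192 TPM (log2 fold change 0.55, adjusted p = 9.36e-05), and Trf and Gata1 rose by 0.65 and 0.37. Spermatid markers were at or near 0: 4 of 24 were at 0 in all 10 libraries and 0 of 24 exceeded 1 TPM in all. Their sum was 7.46 to 10.4 TPM over the 10 libraries.

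Of 16 macrophage and leukocyte genes, 12 rose and 0 fell (median 0.87), and 8 rose with no filter. C1qa, a complement subunit, was at 19.9, 23.3, 37.3, 28.8 and 36.8 TPM against 5.36, 10.8, 13.7, 8.54 and 10.95 TPM (log2 fold change 1.49, SE 0.222, adjusted p = 0.000999). Cd14, a receptor of bacterial products, was at 3.11, 2.76, 3.91, 4.65 and 3.95 TPM against 1.04, 1, 1.17, 1.2 and 0.78 TPM (log2 fold change 1.19, adjusted p = 0.000263). Mrc1, the mannose receptor, and Fcer1g, an Fc receptor chain, were at 18.5 to 25.2 and 12.3 to 17.97 TPM against 7.84 to 16.7 and 6.6 to 10.9 TPM. The summed level of the 16 genes was 179, 204, 322, 254 and 302 TPM in the mutants and 72.8, 131, 167, 109.6 and 107 TPM in the 12 dpp non-mutants, without overlap. It was 128 to 258 TPM in the 16 dpp non-mutants, a range that overlaps the mutants. Within litters the sum was higher in the mutant in 5 of 5 pairs, as were Insl3, Hsd3b6 and Cdkn1a, while Cd14 and Fcer1g were higher in 4 of 5. The sums of the Leydig, erythroid, interferon, Y-linked and silenced X-linked lists were also higher in 5 of 5 pairs. Those of the pachytene, crossover, axoneme, piRNA pathway and acrosome lists were higher in 0 of 5. A higher level in 5 of 5 pairs, a pattern chosen after the values were seen, was found in 16.5% of the 17875 rows. A lower level in 5 of 5 pairs was found in 5.34% of them. Leydig cell genes gave 3 risen and 1 fallen of 12 (median 0.16): Insl3, a hormone of Leydig cells, was at 68.5, 127, 206, 90.6 and 133 TPM against 37.7, 40.5, 64.9, 51.5 and 53.9 TPM (log2 fold change 1.24, adjusted p = 0.0047). Lhcgr, the receptor of luteinising hormone, was at 5.25 to 7.94 TPM against 2.27 to 6.03 TPM (log2 fold change 0.81). The fall of Hsd17b3 (log2 fold change -0.96) was lost in 12 of 18 alternatives, and 1 fallen of 12 is a share near the 6.74% of all rows. The part of these cell types in the rise of other genes was not tested.

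Peritubular myoid and endothelial genes gave 0 calls among 11 and 10 genes, with medians of 0.13 and -0.02. Erythroid genes gave 0 calls among 5 tested, with a median of 0.83, and without Prdm9+/- 12 dpp replicate 2, 2 of the 5 rose. Their sum was uneven between libraries, at 191 to 720.1 TPM in the mutants and 144 to 558 TPM in the 12 dpp non-mutants. Among 11 interferon response genes 2 rose: Irf7, a transcription factor of the response, at 9.56, 9.86, 7.24, 7.53 and 9.76 TPM against 4.08, 2.16, 4.9, 4.85 and 6.63 TPM (log2 fold change 0.87, adjusted p = 0.0122), and Oasl2, at 29.5 to 39.9 TPM against 18.6 to 34.3 TPM. Irf7 was above all non-mutants of both ages, while the call of Oasl2 was lost in 10 of 18 alternatives, and 1 to 4 of the 11 rose when 1 library was left out. Among 15 genes of dissociation stress 1 fell, a share near the 6.74% of all rows: Jund, a call lost in 13 of 18 alternatives, and Fos was at 577 to 1140.1 TPM against 582 to 1265 TPM. Among 12 mitochondrial messengers 1 rose, a share near the background: mt-Co1, a call lost in 12 of 18 alternatives. Without Prdm9+/+ 12 dpp replicate 1, 5 of these 12 rose. Their sum was 100187 to 111168 TPM in the mutants and 74851 to 110814 TPM in the 12 dpp non-mutants, and its part in the other levels was not tested.

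**Figure D5:**
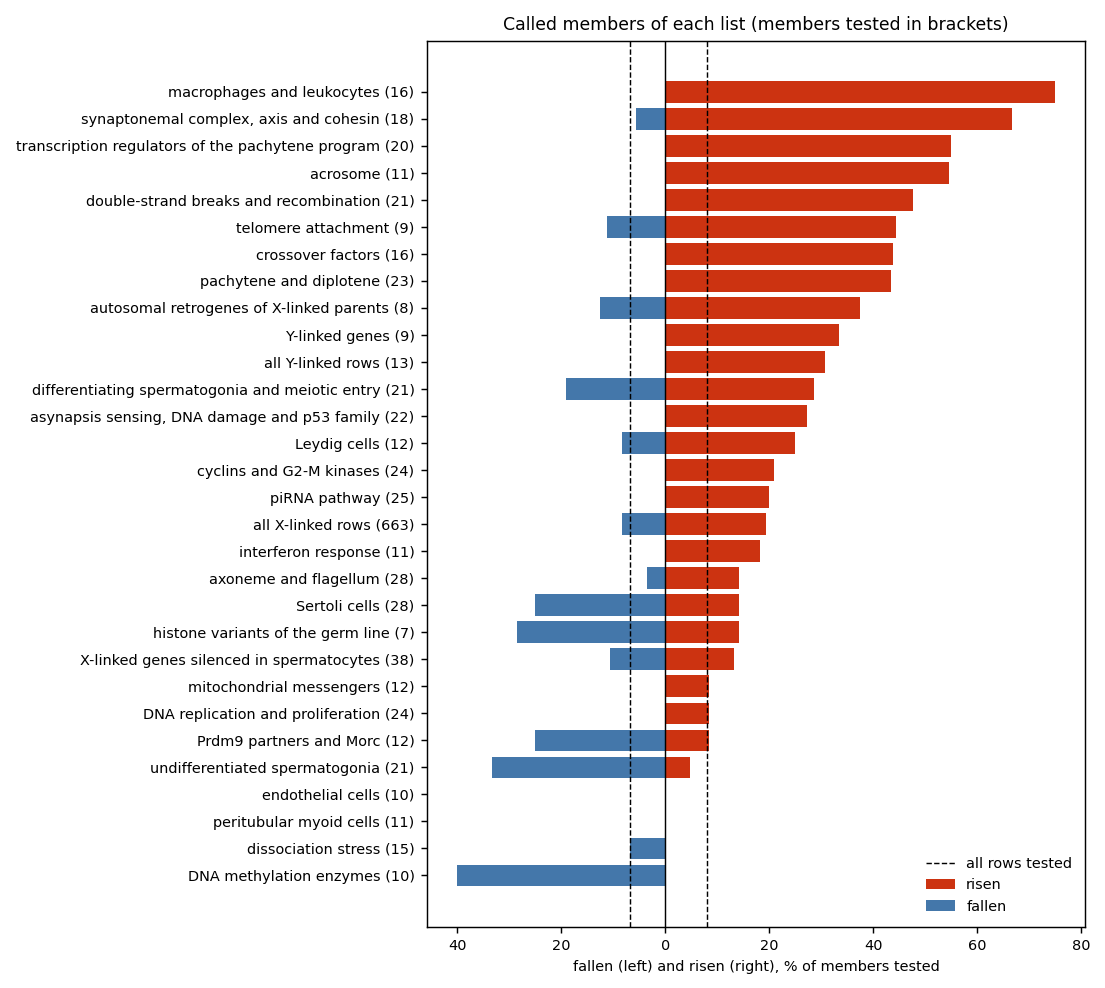
Percent of the tested members of each gene list with at least 7 members tested that rose (right) or fell (left) in Prdm9-/- 16 dpp against non-mutant 12 dpp, ordered by the percent risen; dashed lines mark the 7.99% and 6.74% of all rows tested. Macrophage genes (12 of 16 risen) and synaptonemal complex genes (12 of 18) are at the top, and genes of undifferentiated spermatogonia (7 of 21 fallen) and DNA methylation (4 of 10 fallen) are near the bottom. The 12 of 18 hold Meikin, which passed the filter through the mutants alone.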

How the data were processed

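Per the submitters' processing notes, reads were handled with Bowtie 1.0.0 and RSEM 1.2.8 on mm10 (GRCm38). The annotation version, the read totals and whether counting used strand are not given in the sources used here. The authors deposited 1 table of TPM values per gene row and library, with 38906 Ensembl rows, 26523 NONCODE rows and 105 piRNA loci. The table as held leaves 3.64 to 3.95% of the TPM total of the 10 libraries outside it. Of the Ensembl rows, 37709 matched GENCODE M21 for symbols and positions, and 1197 did not. Depth is unknown, so precision is read from the 5 libraries of each group.

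Rows over 1 TPM in at least 5 of the 10 libraries were tested on log2(TPM + 1) with limma 3.58.1 (trend, R 4.3.3), with Benjamini-Hochberg adjustment over 17875 rows. Since RSEM shares reads among copies, values of close paralogs are uncertain, and reads of overlapping antisense genes may not be separated. Of the tested rows, 61 had the values of another row in all 10 libraries, 10 of them called. On simulated data with this design and 17875 rows, 95 of 100 changes of 1 and 100 of 100 changes of 2 on the log2 scale were recovered, with 8 false calls among 203. These shares cannot be taken to hold for genes near the 1 TPM filter, for which recovery was not measured. The simulation also held far fewer changes than the 2632 rows called in the data. Replicate numbers were checked as pairs: deviations of same-numbered libraries correlated at -0.112 to 0.123 over 5 pairs, only 1 over 0.1, and the litters differ, so the fit has no pairing.

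The comparison and the gene lists were chosen with earlier results of these data known. Named genes are Prdm9, the 12 risen and 12 fallen most (called, mean of at least 1 TPM, a gene name, no overlap of libraries), up to 4 called members per list and direction by smallest adjusted p, and up to 6 rows above and 6 below both non-mutant ages. In lists with under 3 calls, the most abundant members were also eligible. Genes outside this rule, chosen after their values were seen, are Mybl1, Piwil1, Tcp11, Spink2, Ldhc, Fabp9, Spaca1, Zpbp, Meikin, Meiob, Dmc1, Fignl1, Ccdc36, Psmc3ip, Hsf2bp, Brca1, Brca2 and Atm. Some results that this rule names or a list holds are not reported here. Alternatives were another pseudocount (0.1), other filters, all 30 libraries in 6 groups, median-ratio and quantile scaling, robust moderation, a replicate block, a fold threshold and leaving out each library.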

Additional observations from a re-analysis of the deposited data

Results flagged for a closer look

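In the following groups of 5 libraries, 1 library lay apart from the other 4 by Dixon's test at 95%. This was found in 9 of 134 groups checked (36 genes and 31 lists), where chance flags about 1 in 20. Gml was at 85.5 TPM in Prdm9-/- 16 dpp replicate 5, and Lpl at 43.9 TPM in Prdm9+/- 12 dpp replicate 3. Shisa8 was at 40.4 TPM in Prdm9-/- 16 dpp replicate 2, and Creg1 at 36.7 TPM in Prdm9+/- 12 dpp replicate 2. Socs2 was at 15.1 TPM in Prdm9-/- 16 dpp replicate 1, and Cfap43 at 5.6 TPM in Prdm9-/- 16 dpp replicate 3. The summed level of the piRNA pathway was 1509 TPM in the library labelled Prdm9+/- 12 dpp replicate 4, that of the histone variants 2830.2 TPM in Prdm9+/- 12 dpp replicate 3, and that of the erythroid genes 558 TPM in Prdm9+/- 12 dpp replicate 2.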

How the results depend on the processing

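All 2632 called rows that had a value kept their direction in each of the 17 refits and in the replicate block. With no filter, a mean of at least 1 TPM, all 30 libraries in 1 fit or robust moderation the fold changes cannot differ. The direction there was fixed in advance. The fits without 1 library reuse the other libraries that gave the calls. Against 1428 risen and 1204 fallen rows, no filter on low values left 1034 risen and 729 fallen. Of the 2632 calls, 1574 were kept in that setting. Adding a log2 fold change over 1 left 296 called, 206 risen and 90 fallen. With a replicate block 1112 rows were called, 612 risen and 500 fallen, 1078 of them among the 2632; the numbers do not pair the libraries, so lost calls say nothing of the size of a change. Leaving out 1 library gave 1791 to 2565 called, 1002 to 1452 risen and 789 to 1275 fallen rows. The 136 rows above and 8 below both non-mutant ages became 79 and 17 with median-ratio scaling, 139 to 196 and 8 to 19 when 1 library was left out, and 113 and 7 when the Prdm9-/- 12 dpp libraries were also included, an alternative chosen after seeing the data. Of 140 named called genes, 29 lost their call with no filter, 27 with all 30 libraries in 1 fit, 41 with the replicate block, 5 to 20 when 1 library was left out, and 1 to 3 under each other setting. The cause was not tested. The depth of the libraries is unknown, and 5 libraries a group limit the precision.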
